A study of Mus musculus with 7 samples.

Results

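Semaphorins, neuropilins and angiogenic growth factors were examined in osteoblasts of mice with and without a lung tumor. The set comprised 10 of the 23725 genes listed in each count file: the secreted ligands Sema3a, Sema3c, Sema3e, Fgf1 and Vegfa, and the receptors Nrp1, Nrp2, Plxna2, Plxnd1 and Kdr. The genes were taken by name, and the set had been chosen from this dataset with its tumor against tumor-free values already known. Those differences are therefore given as a description. All mice carried conditional p53 (Flox/Flox) and an osteocalcin-promoter GFP reporter (Ocn GFP), on a C57BL/6 background, and all were recorded as male. Cre-expressing adenovirus given through the trachea started tumors in 4 mice, which were taken 14 weeks later. The 3 tumor-free mice, matched by age, sex and litter, carried the same genotype, and the labels do not say whether they received a control virus. The age was 31 weeks for replicates 1 to 3 with a tumor and 1 and 2 without, and 23 weeks for replicate 4 with a tumor and 3 without. From each mouse 2000 GFP-positive cells negative for leukocyte, endothelial and erythroid surface markers were sorted from bone digest pooled with marrow, and 1 library of transcript 3′ ends was made.

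Class 3 semaphorins are secreted guidance proteins that bind neuropilins, which have short cytoplasmic tails and signal through plexins as partners. Sema3e is the exception, since it can bind plexin D1 directly. Neuropilins also bind VEGF-A and act beside VEGF receptors on endothelium, so semaphorins and VEGF share receptors. In bone, Sema3a is known to protect bone mass by restraining osteoclasts and favouring osteoblasts, and VEGF-A from osteoblasts couples vessel growth to bone formation.

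Libraries held 77127 to 169774 counts, and 43.8% of all listed genes had 0 counts in every library. Levels are given as CPM, counts relative to the library total after TMM scaling, and are compared between libraries and not between genes. P-values weigh a fitted difference against the spread between mice within groups, estimated with the help of all genes tested. Osteoblast transcripts were present in each library (Col1a1 23 to 96 counts, Runx2 7 to 35), although the reporter's own gene Bglap had 0 to 2 counts. Among 22 endothelial markers 13 had 0 counts in all libraries, including Pecam1, Emcn, Tek, Flt1 and Kdr. Cdh5 had 2 counts in all, and most endothelial counts fell on Mmrn2 and Ptprb. Of 18 leukocyte markers 10 were at 0 and Ptprc had 3 counts in all, while the myeloid genes Itgam (19 to 45 counts) and Csf1r (8 to 24 counts) were counted in every library.

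Counts were found for 8 of the 10 genes. The 6 with enough counts to test were Sema3a, Sema3e, Fgf1, Vegfa, Nrp1 and Nrp2, and none of them passed the test for tumor against tumor-free (edgeR's quasi-likelihood test, adjusted over 2495 genes, lowest adjusted p of any gene 0.999). Among all genes tested 0% were called (60 at an unadjusted p under 0.05). DESeq2 and limma voom also called 0 genes, with 49 and 96 at an unadjusted p under 0.05. Of the 4 ligands tested 3 had a log2 fold change above 0 and 1 below, and of the 2 receptors tested 1 lay on each side. The median over the 6 genes was 0.10, against 0.01 over all genes tested. All 6 intervals (95%) included 0 and reached 0.65 to 1.02 on the log2 scale to either side of the estimate.

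**Figure D1:**
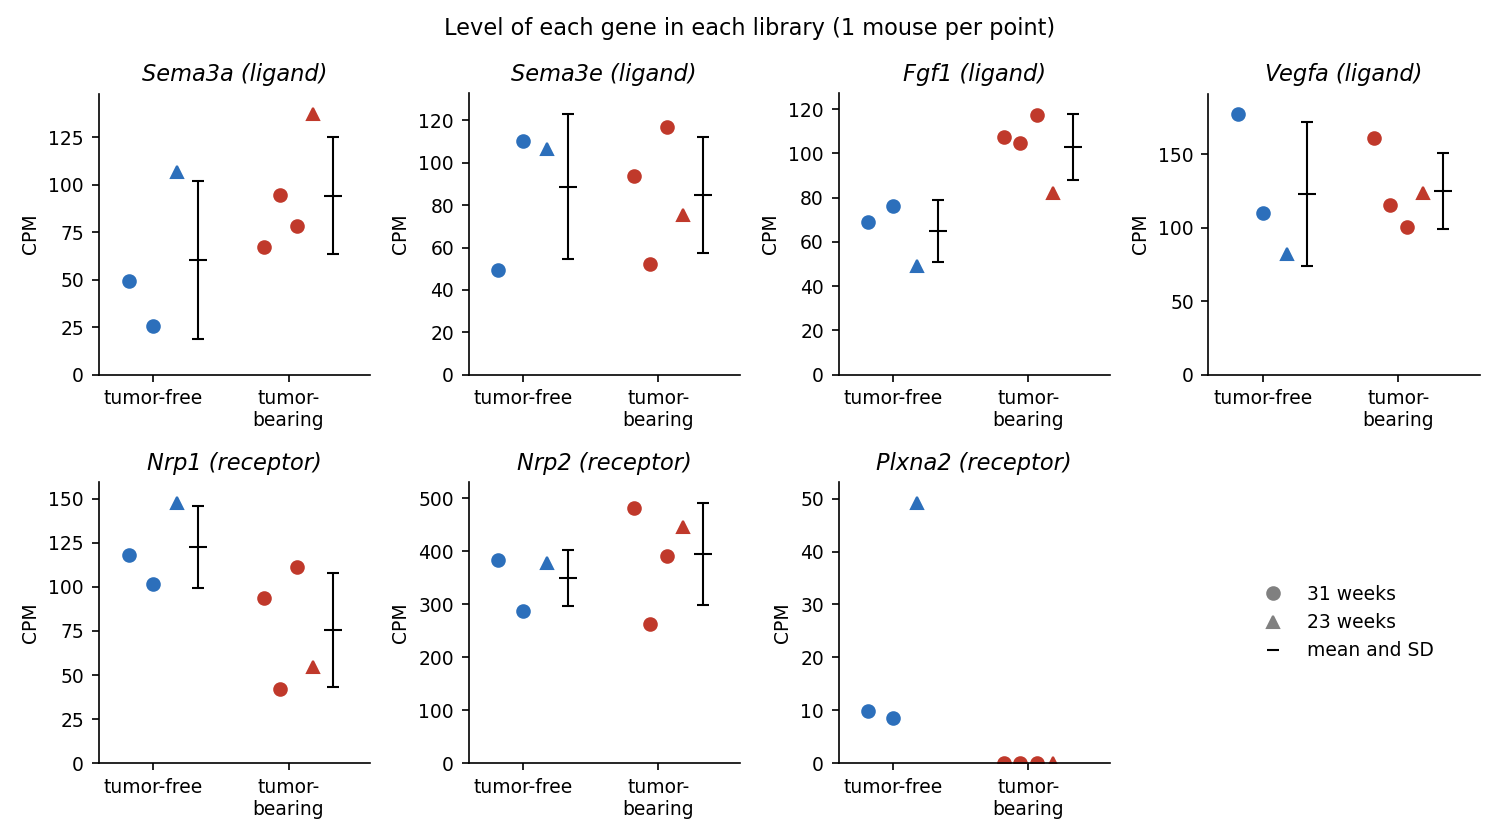
Level (CPM, vertical axes from 0) of 7 genes in each library, with tumor-free mice in blue, tumor-bearing mice in red, circles for 31 weeks and triangles for 23 weeks; the black mark and bar are the group mean and SD (none drawn for Plxna2, which was too sparse). Fgf1 lay at 82.2 to 117 CPM with and 49.2 to 76.2 CPM without a tumor, while in Sema3a and Nrp1 the groups overlapped.

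Sema3a (chromosome 5, 13124822 to 13603485, mm10) had 5, 9, 14 and 20 counts in tumor-bearing replicates 1 to 4 and 5, 3 and 13 counts in tumor-free replicates 1 to 3. These counts correspond to 67.1, 94.4, 78.1 and 137 CPM with a tumor and to 49.2, 25.4 and 107 CPM without. The groups overlapped, because the 23-week tumor-free mouse lay above 3 of the tumor-bearing mice. At 31 weeks each of the 3 tumor-bearing libraries lay above both tumor-free libraries, and at 23 weeks the tumor-bearing mouse lay above the tumor-free mouse. The share of all genes tested with this order was not counted, and the set was chosen with these values known, so the order is a description only. The mean was 94.1 ± 30.7 CPM (SD, n = 4) with and 60.4 ± 41.8 CPM (SD, n = 3) without a tumor, and the log2 fold change adjusted for age was 0.79 (SE 0.40, 95% interval -0.13 to 1.71; edgeR adjusted p = 0.999). It was 0.49 without tumor-free replicate 2, the library with 3 counts. Summed over a group, 48 counts gave 96.9 CPM (exact Poisson 95% interval 71.5 to 128.5) with a tumor and 21 counts gave 61.5 CPM (38.1 to 94.0) without. These intervals cover counting error only.

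Sema3e (chromosome 5, 14025276 to 14256689), the ligand of plexin D1 that repels endothelial sprouts, overlapped between the groups over most of its range. Its levels were 93.9, 52.4, 117 and 75.4 CPM in the tumor-bearing and 49.2, 110 and 107 CPM in the tumor-free libraries, from 5 to 21 counts each. The lowest value was in a tumor-free and the highest in a tumor-bearing mouse. The log2 fold change was -0.05 (SE 0.44), with an interval of -1.06 to 0.97, and its sign turned under several alternatives. Sema3c (chromosome 5, 17574816 to 17730268), a semaphorin of heart and vessel development, had a single count, in tumor-bearing replicate 2.

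Fgf1 (chromosome 18, 38838672 to 38929470), the acidic fibroblast growth factor that binds all FGF receptors, had 8, 10, 21 and 12 counts in tumor-bearing and 7, 9 and 6 counts in tumor-free libraries. The levels were 107, 104.8, 117 and 82.2 CPM with and 68.9, 76.2 and 49.2 CPM without a tumor, so that the lowest tumor-bearing library lay above the highest tumor-free library. The same order within each age follows from this and adds nothing to it. The log2 fold change was 0.63 (SE 0.31, interval -0.09 to 1.35; edgeR adjusted p = 0.999). Groups did not overlap, with the tumor-bearing side higher, in 1.72% of all genes tested, and on the lower side in 1.6%. Fgf1 was the only gene of the 6 without overlap. It reached the count filter, about 84.3 CPM on unscaled totals in at least 3 libraries, in 4 tumor-bearing and 0 tumor-free libraries, so a gene tested on these terms had to differ and its place in that count is no evidence of a change. The spread of Fgf1 between mice of a group was 0.34 times that expected from counting alone (chi-square per degree of freedom).

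Vegfa (chromosome 17, 46016993 to 46032377), which encodes the main growth factor of blood vessels, had 10 to 18 counts in each library. The levels were 161, 115, 100.4 and 123 CPM in tumor-bearing and 177, 110 and 82.0 CPM in tumor-free mice. The highest and the lowest value both came from tumor-free mice. The log2 fold change was 0.01 (SE 0.34, interval -0.79 to 0.80), and its sign turned with the mice included: within 31 weeks the ratio of group means was -0.19 and at 23 weeks 0.59 on the log2 scale. The other VEGF ligands were sparse, with 2 counts in all for Vegfb, 2 for Vegfc, 6 for Pgf and 0 for Vegfd. Of the other VEGF receptors Flt1 had 0 counts and Flt4, the receptor of VEGF-C, 4.

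Nrp1 (chromosome 8, 128358591 to 128505476), the neuropilin that binds Sema3a and VEGF-A, had 7, 4, 20 and 8 counts in tumor-bearing and 12, 12 and 18 counts in tumor-free libraries. Its levels were 93.9, 41.9, 112 and 54.8 CPM with and 118, 102 and 148 CPM without a tumor. The tumor-bearing mice held the 3 lowest values, and tumor-bearing replicate 3 lay above tumor-free replicate 2, so the groups overlapped. The mean was 75.5 ± 32.6 CPM (SD, n = 4) against 122 ± 23.3 CPM (SD, n = 3), with a log2 fold change of -0.68 (SE 0.41, interval -1.64 to 0.29; edgeR adjusted p = 0.999). The value was -0.36 without tumor-bearing replicate 4 and -0.37 without tumor-free replicate 3, the 23-week mice, and -1.01 without tumor-bearing replicate 3. Within 31 weeks the log2 ratio of group means was -0.41, and between the 23-week mice -1.43. Pooled over groups, 39 counts gave 78.8 CPM (exact Poisson 95% interval 56.0 to 108) with and 42 counts gave 123 CPM (88.6 to 166) without a tumor.

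Nrp2 (chromosome 1, 62703317 to 62818692), the neuropilin better known as a receptor of Sema3f and of the lymphatic growth factor VEGF-C, was the best measured of the set, with 25 to 70 counts per library. Its levels were 483, 262, 390.3 and 445 CPM in tumor-bearing and 384, 288 and 377 CPM in tumor-free mice. The lowest library and the highest were both tumor-bearing. The log2 fold change was 0.19 (SE 0.28, interval -0.46 to 0.84). It ranged from 0.04 to 0.33 when each library was left out in turn.

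Within each library Nrp1 took a smaller share of the neuropilin counts with a tumor. It held 16.3%, 13.8%, 22.2% and 11.0% of the counts of Nrp1 and Nrp2 in tumor-bearing replicates 1 to 4, and 23.5%, 26.1% and 28.1% in tumor-free replicates 1 to 3. This share does not depend on how libraries are scaled, and the groups did not overlap, but the exact binomial 95% intervals of single libraries did: 14.1% to 32.2% in tumor-bearing replicate 3 and 12.8% to 37.5% in tumor-free replicate 1. The share was formed after the values of both genes had been seen and was not tested. It is a share of counts, since capture of the 2 transcripts may differ.

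Plexins were near or under the limit of detection. Plxna2 (chromosome 1, 194619791 to 194816869), a plexin that carries the class 3 semaphorin signal into the cell beside neuropilins, had 1, 1 and 6 counts in tumor-free and 0 counts in each of the 4 tumor-bearing libraries. Taken over the groups, 8 counts gave 23.4 CPM (exact Poisson interval 10.1 to 46.2) without a tumor, and 0 counts allow up to 6.06 CPM with a tumor (3 counts over the group), which is at least 3.87-fold lower against the 23.4 CPM as counted, a bound that leaves out the counting error of those 8 counts. Of the 8 counts 6 came from tumor-free replicate 3, a 23-week mouse, and without it 2 counts were left, under the limit of 3, so that no fold can be given. Plxna2 was too sparse for the test. Plxnd1 (chromosome 6, 115954811 to 115995339), the receptor of Sema3e, and Kdr (chromosome 5, 75932827 to 75979072), the main signalling receptor of VEGF-A on endothelium, had 0 counts in all 7 libraries, which allows up to 3.59 CPM over the series. Sema3e and Vegfa were thus counted in each library while their main receptors were not detectable at this depth. The sort removed cells with the endothelial protein CD31. Fewer cells of a type and less RNA per cell cannot be told apart in these pooled cells.

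**Figure D2:**
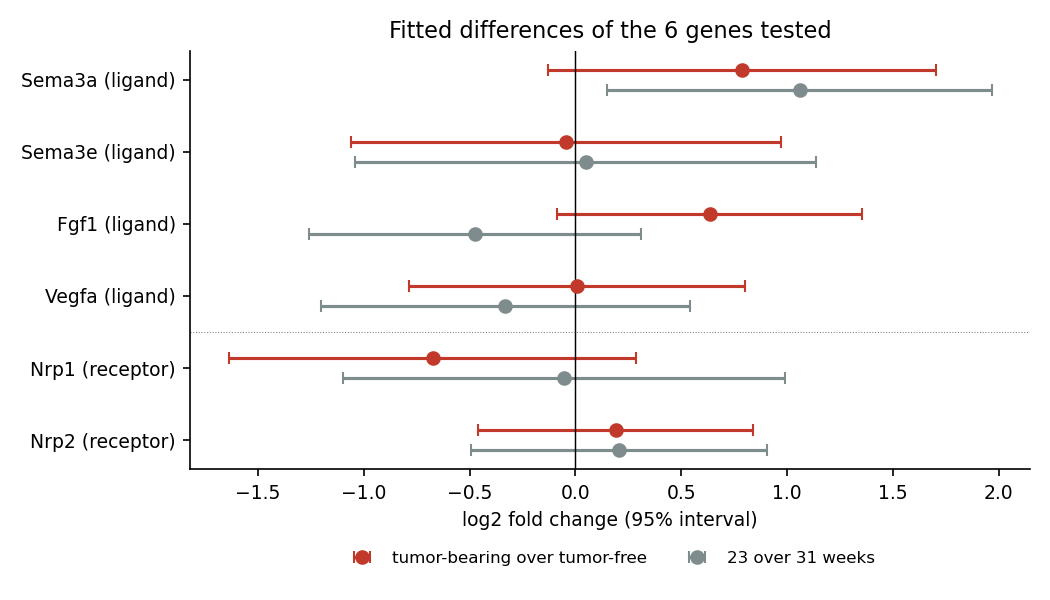
Fitted log2 fold change (horizontal axis) with its 95% interval for the 6 genes tested, ligands above and receptors below the dotted line; red is tumor-bearing over tumor-free and grey is 23 over 31 weeks. Each tumor interval includes 0, from -0.13 to 1.71 in Sema3a and from -1.64 to 0.29 in Nrp1, and the age interval of Sema3a lies at 0.15 to 1.97.

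Whether ligands and receptors lay on opposite sides was read first from sums. The 5 ligands together had 429, 377, 413 and 418 CPM in tumor-bearing and 345, 322 and 345 CPM in tumor-free libraries, a mean of 409 ± 22.3 CPM (SD, n = 4) against 337 ± 13.1 CPM (SD, n = 3). Each tumor-bearing library lay above each tumor-free library. The 5 receptors together had 577, 304, 502 and 500.3 CPM with and 512, 398 and 574 CPM without a tumor, and the groups overlapped over most of their range. On the log2 scale the difference of group means was 0.28 for ligands and -0.09 for receptors, beside a pooled SD between libraries of 0.07 and 0.36. Counting alone gives an SD of 0.17 to 0.26 for the ligand sum of a single library (32 to 74 counts), so the 0.07 lies under the counting error and is no measure of precision. Because the genes were chosen with their values known, no test was made of these sums.

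The sums hide unequal members. Nrp2 supplied 65.7% to 89.0% of the receptor counts, so the receptor sum was mostly Nrp2, and Nrp1 lay on the other side from it. Among ligands Sema3a and Fgf1 lay above 0 while Sema3e and Vegfa lay near 0. The log2 ratio of receptors to ligands was 0.43, -0.31, 0.28 and 0.26 with and 0.57, 0.31 and 0.74 without a tumor. These ratios overlapped. Their group means differed by -0.37, and the pooled SD of single libraries was 0.29. That SD is not the error of a difference of means, and the difference was not tested. For Sema3a and its receptor Nrp1 there were 1.4, 0.44, 1.43 and 0.4 counts of Nrp1 per count of Sema3a with a tumor and 2.4, 4 and 1.38 without. The 2 lowest ratios were tumor-bearing and the 2 highest tumor-free, and the groups overlapped in the middle. An opposite movement of ligands and receptors as classes was therefore not shown by these libraries: Sema3a and Nrp1 had fold changes of opposite sign, neither past the test.

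**Figure D3:**
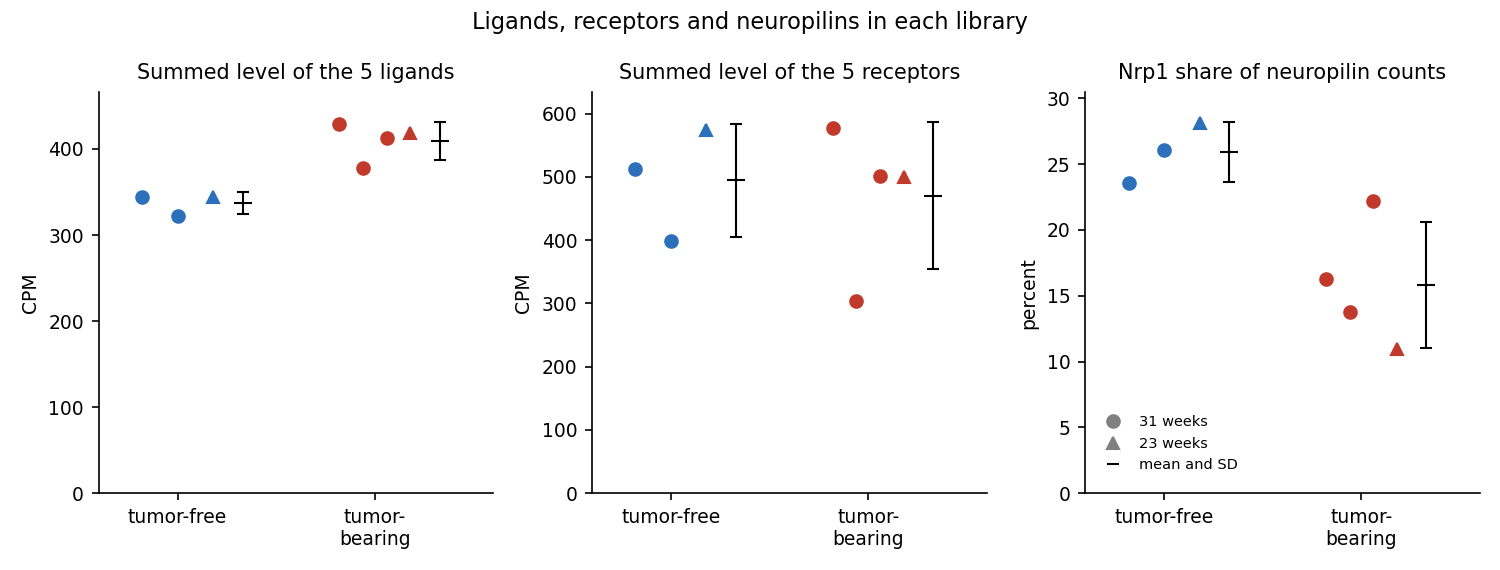
Summed level of the 5 ligands and of the 5 receptors (CPM) and share of Nrp1 in the neuropilin counts (percent), each on an axis from 0, by library; colours, symbols and bars are as in the plot of levels. Ligand sums lay at 377 to 429 CPM with and 322 to 345 CPM without a tumor, receptor sums overlapped, and the Nrp1 share lay at 11.0% to 22.2% with and 23.5% to 28.1% without a tumor.

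Age was a contrast that the choice of the genes did not use, with 5 mice of 31 weeks and 2 of 23 weeks. Among the 6 genes tested Sema3a had the largest fold change by age. Its levels were 107 and 137 CPM in the 2 libraries of 23 weeks. All 5 libraries of 31 weeks lay below, at 25.4 to 94.4 CPM. Its log2 fold change of 23 over 31 weeks, with tumor in the model, was 1.06 (SE 0.39, interval 0.15 to 1.97), with an unadjusted p of 0.0262 and an adjusted p of 0.982 (edgeR), so it did not pass over all genes. Ages did not overlap, with 23 weeks higher, in 4.69% of all genes tested and, with 23 weeks lower, in 3.65%. Sema3a was the only 1 of the 6 without overlap. It reached the count filter in 2 tumor-bearing and 1 tumor-free libraries, the 3 that were needed, and both 23-week mice were among them. Its level at 23 weeks thus helped it into the test, so this lack of overlap is no evidence of a change. Plxna2, too sparse to test, had 6 of its 8 counts in 1 mouse of 23 weeks and 0 in the other. Of the other 5, Fgf1 had -0.47 (SE 0.34), Vegfa -0.33 (SE 0.37), Nrp2 0.21 (SE 0.30), Nrp1 -0.05 (SE 0.45) and Sema3e 0.05 (SE 0.47). No gene of all 2495 was called by age in edgeR (0%, with 117 at an unadjusted p under 0.05), and DESeq2 and limma voom called 0 too.

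The spread of the 6 genes between mice of a group, as chi-square per degree of freedom, would be near 1 from counting alone. It was 2.11 for Sema3a, 1.71 for Nrp2, 1.28 for Nrp1, 1.22 for Sema3e, 1.20 for Vegfa and 0.34 for Fgf1. This measure rises with the number of counts, so it was not compared with that of deeper genes.

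Other genes of these pathways were taken from 8 lists of ligands, receptors and signalling partners. Of their 168 genes 22 could be tested, the 6 genes above included. Among the 16 others 0 were called higher and 0 lower. Of these 5 lay above and 11 below 0, with a median log2 fold change of -0.09 against 0.01 over all genes tested. Groups did not overlap for 1 of the 16, Cfl1, on the lower side, where 1.6% of all genes tested lay. Cfl1, the actin-severing protein cofilin at the end of semaphorin signalling, had 148 ± 39.5 CPM (SD, n = 4) with and 342 ± 157 CPM (SD, n = 3) without a tumor (log2 fold change -1.17, SE 0.39, edgeR adjusted p = 0.999).

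Of 20 semaphorins 13 had at least 1 count and 4 were tested, with a median of -0.05. Sema6d, a transmembrane ligand of plexin A1, had 460 ± 18.6 against 476 ± 40.6 CPM (-0.05, SE 0.21). Sema4b, a membrane-bound ligand with 22 to 234 counts, had 817 ± 973 against 1234 ± 653 CPM (-0.60, SE 0.91) and Sema4f was too sparse to test, at 74.8 ± 24.8 against 59.5 ± 18.3 CPM. Among 12 neuropilins, plexins and the co-receptor L1cam, 9 had counts and 4 were tested, with a median of -0.26. Plxnb1, a receptor of Sema4d, had 112 ± 21.7 against 113 ± 22.8 CPM (-0.05, SE 0.32), and L1cam, which binds Nrp1, 175 ± 49.0 against 258 ± 213 CPM (-0.46, SE 0.50). Tumor-free replicate 2 held 59 of the 182 L1cam counts. Plxna4, a partner of Nrp1 for Sema3a, had 3 to 12 counts per library and was not tested. Its 65.2 ± 25.7 CPM with and 67.3 ± 15.7 CPM without a tumor lay within the spread. Among the signalling partners Dpysl2, the collapsin response mediator downstream of Sema3a, had 1539 ± 192 against 1483 ± 79.9 CPM (0.06, SE 0.17), and Gsk3b, a kinase that acts on it, 566 ± 441 against 796 ± 365 CPM (-0.37, SE 0.61).

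Of 24 FGF ligands and binding proteins 12 had counts and 2 were tested. Besides Fgf1 this was Fgf5, known as a brake on hair growth, with 137 ± 30.5 CPM with and 165 ± 73.8 CPM without a tumor (-0.29, SE 0.36). Fgf9 and Fgf16 were too sparse to test, with 63 and 45 counts in all. Fgfr1, the main FGF receptor of osteoblasts, had 1, 7, 9 and 4 counts in tumor-bearing and 23, 8 and 8 counts in tumor-free libraries and was not tested. Tumor-free replicate 1 held the highest of these. Spry2, a feedback inhibitor of FGF signalling, had 348 ± 57.8 against 382 ± 120 CPM (-0.12, SE 0.30), and the co-receptor Kl 3 to 14 counts. Of the genes around VEGF induction by hypoxia only 2 were tested: Arnt, the partner of the hypoxia-inducible factors (-0.26, SE 0.38), and P4ha1, a collagen prolyl hydroxylase (-0.82, SE 0.56). Epas1, one of these factors, had 4 to 12 counts. The netrin receptors Unc5b, Unc5c and Dcc, the 3 genes tested of 39 other angiogenic ligands and receptors, had 0.34 (SE 0.33), 0.17 (SE 0.56) and 0.16 (SE 0.41). None of the angiopoietin receptors Tek and Tie1 had a count.

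**Figure D4:**
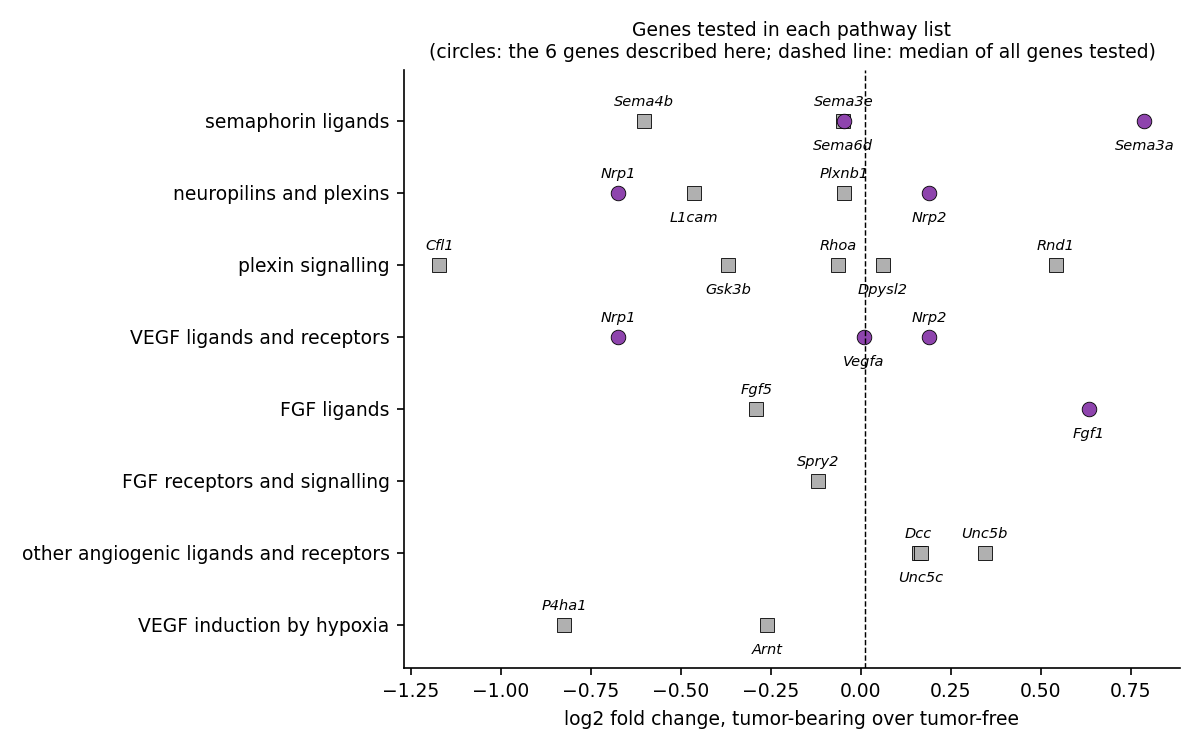
Log2 fold change of tumor-bearing over tumor-free (horizontal axis) for each gene tested in the 8 pathway lists (rows; a gene in 2 lists is drawn in both); circles are genes of the set and squares other genes, and the dashed line is the median of all genes tested, 0.01. Points lie from -1.17 in Cfl1 to 0.79 in Sema3a, and none passed the test.

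No marker in the lists of cell types was called higher or lower (edgeR, 0 in each list). The summed level of 14 osteoblast markers was 1377 to 1851 CPM with and 1838 to 2885 CPM without a tumor, which overlapped narrowly. Of the 8 tested 6 lay below 0, and their median was -0.50 on the log2 scale. The sum of 9 osteoclast markers was 301 to 349 CPM with and 119 to 256 CPM without, mostly from Tnfrsf11a, while the defining markers Ctsk and Acp5 had 0 to 2 and 0 to 1 counts and Mmp9, Calcr, Ocstamp and Dcstamp were at 0. The sum of the 9 erythroid markers listed in the files was 82.2 to 121 CPM with and 127 to 207 CPM without. Endothelial sums, 241 to 692 CPM with and 304 to 491 CPM without, overlapped, as did the leukocyte sums of 390.3 to 521 and 389.7 to 451 CPM. Sums also overlapped for stromal (781 to 1207 and 788 to 902 CPM), chondrocyte (671 to 2904 and 919 to 1172 CPM), neuron and glia (630.5 to 1542 and 993 to 1982 CPM) and lung epithelium markers (419 to 1381 and 492 to 695 CPM). The part of these markers in the levels of Sema3a, Fgf1 and Nrp1 was not tested.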

How the data were processed

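The authors deposited 1 file for each of the 7 mice, with raw counts by Entrez ID. Per the labels' protocols, the method was a custom CEL-Seq on transcript 3′ ends that adds molecular identifiers. Build mm10, SAMtools and TopHat2 2.0.10 are named in the submitters' processing notes. The sources used here do not give how genes were counted, the strand setting, or whether identifiers were collapsed, so a count may be a read or a transcript. The highest count of any gene was 282 to 303 in each library, although totals ran from 77127 to 169774, and the reason was not tested. If counts were reads, the Poisson and binomial intervals and the spread expected from counting alone would not hold. By GENCODE M21 (GRCm38) no exon of the 10 genes overlaps a gene on the other strand. A RefSeq table (GRCm38.p6, the assembly of mm10) gave symbols to 23666 IDs, the 10 genes included, and their coordinates.

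Genes were filtered with filterByExpr (minimum count 10, minimum total 15), which left 2495 of 23725 genes. The model had tumor and age (31 or 23 weeks) as terms and was fitted across all genes with edgeR 4.0.16 in R 4.3.3 (TMM factors 0.960 to 1.06 on total counts, robust glmQLFit, glmQLFTest), with Benjamini-Hochberg adjustment at 0.05. CPM use TMM-scaled totals. Alternatives used DESeq2 1.42.0, limma 3.58.1 (voom with quality weights), other scalings and filters, no age term, 31-week mice, a replicate block, and each library left out. The procedure was tested on simulated counts, with changes placed only in genes with more counts. Among the genes of the set tested only Nrp2 had that many counts, so the simulation does not speak for the others. No library repeated another (chi-square per degree of freedom at least 1.99 for each pair). Poisson and binomial intervals cover counting error only, and those of log2 fold changes come from the edgeR fit and include the spread between mice. The genes and gene lists were chosen with earlier results of these data known. Other genes were named by a rule: in each pathway list up to 3 genes with the highest mean CPM. The genes Vegfb, Vegfd, Flt1, Tek and Tie1, and the markers beyond Col1a1, Runx2, Bglap, Ptprc, Pecam1 and Cdh5 were named after their values were seen. A further part of the genotype that all mice shared is not reported here.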

Additional observations from a re-analysis of the deposited data

Results flagged for a closer look

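A library stood apart from the other 3 tumor-bearing libraries for 2 of 24 quantities looked at in this way, where chance flags about 1 in 20. Dcc, the netrin receptor, had 1364 CPM in tumor-bearing replicate 4. Sema4b had 2275 CPM in tumor-bearing replicate 2. None of the 6 genes of the set tested was among them.

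The genes among those 24 quantities were also compared by age. For 3 named genes outside the set the groups did not overlap at 31 weeks and the 23-week mice lay the other way round. These differences were not tested. The share of all genes tested with this pattern was not counted, so nothing about these 3 genes is concluded from it. Genes whose groups overlapped at 31 weeks were not counted, even where the ratio of means changed sign. The log2 ratio of tumor-bearing to tumor-free means was -0.42 at 31 weeks and 1.52 at 23 weeks for Dcc. It was 0.29 and -0.76 for Plxnb1, and -0.46 and 0.74 for Spry2. At 23 weeks each value compares 1 mouse with 1 mouse.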

How the results depend on the processing

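Signs of Sema3a, Fgf1, Nrp1 and Nrp2 were the same under each alternative in which they were tested, and none of the 6 genes was called for tumor or for age under any alternative. Sema3a was not tested in 31-week mice alone, in the fit with the replicate block, or without tumor-bearing replicate 2 or 4, Fgf1 not without tumor-bearing replicate 3, and with the stricter filter only Nrp2 was tested. Sema3e turned to 0.16 in 31-week mice and to 0.0041 with no filter on low counts, and ranged from -0.37 to 0.18 with each library left out. Vegfa turned to -0.23 in 31-week mice, and ranged from -0.23 to 0.32 with each library left out. The summed receptors, -0.09, ranged from -0.24 to 0.10 with each library left out and were -0.33 as a mean of log2 CPM. Over all genes 0 were called for tumor in each setting except no filter on low counts, where 38 were called. By age 69 genes were called with no filter. The cause of these calls was not tested. With the replicate number as a block, without tumor-bearing replicate 4 and without age, 0 genes were called, and Nrp1 had -0.60, Fgf1 0.78, Nrp2 0.08, Vegfa 0.06 and Sema3e -0.03. Same-numbered libraries did not deviate together (correlations -0.16, -0.20 and -0.14), while pairs of different numbers had correlations of 0.00058 to 0.15. Deviations from a mean of 3 libraries sum to 0 within each group, so this check cannot decide whether the numbers pair the mice. Nothing in the labels says that the numbers mark litters, and replicate number 3 joins a 31-week with a 23-week mouse, while the 2 mice of 23 weeks were not paired with each other. At 3 to 21 counts per library for the genes tested other than Nrp2, and fewer for the genes not tested, depth limits what can be seen.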
